A study of Homo sapiens with 8 samples.

Results

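ZNF217 and 9 genes that lie beyond it towards the end of the long arm of chromosome 20, in band 20q13, were followed in SKBR3 breast cancer cells with and without the transcription factor FOXA1. The genes were taken as the rows of the deposited count table whose symbol was ZNF217, BCAS1, CYP24A1, PFDN4, DOK5, FAM210B, AURKA, CSTF1, CASS4 or RTF2. All 10 symbols were found once among the 30434 genes of the table. The rule names them as genes of a stretch that is often gained in breast cancer, and it uses no measured value, though they were proposed with earlier results of these data known. DNA copy number was not analysed here.

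RNA sequencing was done on 8 libraries of SKBR3, a human line with a HER2-positive luminal phenotype. The 4 control libraries came from cells with the genotype given as WT, and the 4 knockdown libraries from a stable derivative of the same line, made with lentiviruses carrying 3 different short hairpin RNAs against FOXA1. Both were grown in the same serum-containing medium. The labels do not say whether the control cells carried an empty or scrambled vector, whether the derivative is a single clone, or whether the replicates were separate cultures, so p-values measure only the spread between these libraries, which may be technical.

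FOXA1 is a forkhead transcription factor that opens closed chromatin for steroid receptors and other factors in luminal breast cells. ZNF217 is a zinc finger protein that represses genes together with CtBP and CoREST proteins, and it was described as a candidate oncogene of the 20q13 gain. Its neighbours do unrelated work: BCAS1 is a protein named for its amplification in breast cancer and marks myelinating glia, CYP24A1 inactivates vitamin D, PFDN4 is a subunit of the prefoldin chaperone, AURKA is the mitotic kinase Aurora A, and CSTF1 belongs to the machinery that cuts the ends of messenger RNAs. DOK5 and CASS4 are adaptor and scaffold proteins of tyrosine kinase signalling, RTF2 acts at stalled replication forks, and FAM210B is a mitochondrial membrane protein.

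FOXA1 itself checked the labels. It had 4180, 4239, 4071 and 4397 counts in control libraries 1 to 4 and 89, 87, 83 and 92 in knockdown libraries 1 to 4, so that 2.06% of its control level remained. Totals per library were 21838121 to 23786684 counts in control and 19087878 to 23503753 in knockdown. On the second principal component, with 1.82% of the variance against 90.9% for the first, control library 3 stood apart at -40.1, against 9.53 to 16.3 for the other controls. All 6 markers used for a luminal HER2-positive line were present, with summed levels of 16500 to 18400 CPM (counts per 1000000, after scaling of the libraries) in control and 11000 to 11900 CPM in knockdown. The sum mixed 3 falls with 3 rises. Mean levels in control and knockdown were 7308 and 1340 CPM for ERBB2, which made up much of the lower sum. GRB7 (363.5 and 124.7 CPM) and KRT19 (2645 and 723 CPM) were also lower. KRT8 (4519 and 5619 CPM), KRT18 (2312 and 3457 CPM) and EPCAM (179.4 and 226.2 CPM) were higher in knockdown.

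The 10 genes span 2.95 Mb, from 53567065 to 56519449 on chromosome 20 in GENCODE 29 on GRCh38, in 2 blocks. ZNF217 (ENSG00000171940.13, minus strand, 53567065 to 53609907), BCAS1 (ENSG00000064787.13, minus strand, 53936777 to 54070594), CYP24A1 (ENSG00000019186.10, minus strand, 54153449 to 54173973), PFDN4 (ENSG00000101132.10, plus strand, 54207847 to 54228052) and DOK5 (ENSG00000101134.12, plus strand, 54475597 to 54651171) make up the first. A gap of 1707.74 kb follows. The second block holds FAM210B (ENSG00000124098.10, plus strand, 56358915 to 56368663), AURKA (ENSG00000087586.17, minus strand, 56369389 to 56392337), CSTF1 (ENSG00000101138.12, plus strand, 56392371 to 56406369), CASS4 (ENSG00000087589.16, plus strand, 56412112 to 56460387) and RTF2 (ENSG00000022277.13, plus strand, 56468585 to 56519449). Neighbours in it are at most 8.2 kb apart. FAM210B ends 0.72 kb from AURKA, and AURKA and CSTF1 point away from each other across 33 bases.

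3 stretches of reference sequence lie at or near annotated starts of genes described below. The first lies directly upstream of the RefSeq start of ZNF217 at 53593839 (chr20:53593840-53594089, minus strand, 250 bases), inside the longer span that GENCODE gives this gene, which rose in knockdown. The second lies upstream of FAM210B (chr20:56358724-56358914, plus strand, 191 bases, up to its first annotated exon), which fell. The third is the whole stretch between the GENCODE spans of AURKA and CSTF1 (chr20:56392338-56392370, plus strand, 33 bases), shown because these genes border it and differed in their response. RefSeq places starts of CSTF1 at 56392379 and 56392645, beyond this stretch. All are RefSeq sequence of GRCh38.p14, written 5′ to 3′, and capitals mark the GC box GGGCGG on either strand.
ZNF217: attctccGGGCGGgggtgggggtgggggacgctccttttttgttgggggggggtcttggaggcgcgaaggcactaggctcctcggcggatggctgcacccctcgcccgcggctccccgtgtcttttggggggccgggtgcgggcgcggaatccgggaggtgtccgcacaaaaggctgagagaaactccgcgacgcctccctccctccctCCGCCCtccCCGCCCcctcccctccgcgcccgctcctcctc
FAM210B: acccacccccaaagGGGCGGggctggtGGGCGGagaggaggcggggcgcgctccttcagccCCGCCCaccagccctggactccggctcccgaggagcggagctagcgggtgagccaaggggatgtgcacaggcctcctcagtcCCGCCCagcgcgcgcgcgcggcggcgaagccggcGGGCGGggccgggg
AURKA to CSTF1: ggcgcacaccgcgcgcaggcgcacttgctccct
GC made up 72.4% of the ZNF217 stretch, 78.5% of the FAM210B stretch and 75.8% of the bases between AURKA and CSTF1. The GC box matched 3 times in the first, 5 times in the second and 0 times in the third, and 42.6% of 35116 RefSeq promoters of 250 upstream bases hold at least 1 match. RefSeq promoter entries were matched for 6 of the 10 genes (ZNF217, PFDN4, DOK5, FAM210B, CSTF1 and RTF2). The forkhead letters TGTTTAC (in 2.98% of all promoters of that length), TATTTAC (2.39%) and TGTTTAT (3.77%) were searched on both strands of their 250 upstream bases. The window of PFDN4 alone held a match, 1 to TGTTTAT, and 8.69% of all promoters hold at least 1 of the 3. A match is a description of letters, and their absence says only that they are not in this window.

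Of the 10 genes, 7 had enough counts to be tested. In knockdown, ZNF217 and PFDN4 rose, BCAS1, FAM210B, CSTF1 and RTF2 fell, and AURKA did not pass the test. BCAS1 was nearly lost, FAM210B fell to 29.5% of its level, and the other changes were below 2-fold. So 6 of 7 tested genes were called at an adjusted p under 0.05 (edgeR's quasi-likelihood test, Benjamini-Hochberg adjustment over 16430 genes), 2 higher and 4 lower. Across all tested genes 77.1% were called, 39.4% higher and 37.7% lower, so the share of called neighbours is near the background. The groups did not overlap for the same 6 of 7 genes, against 72% of all tested genes. The median log2 fold change was -0.353 over the 7 tested genes and 0.019 over all tested genes. In bulk RNA, fewer cells that express a gene and less of its RNA per cell cannot be told apart.

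**Figure D1:**
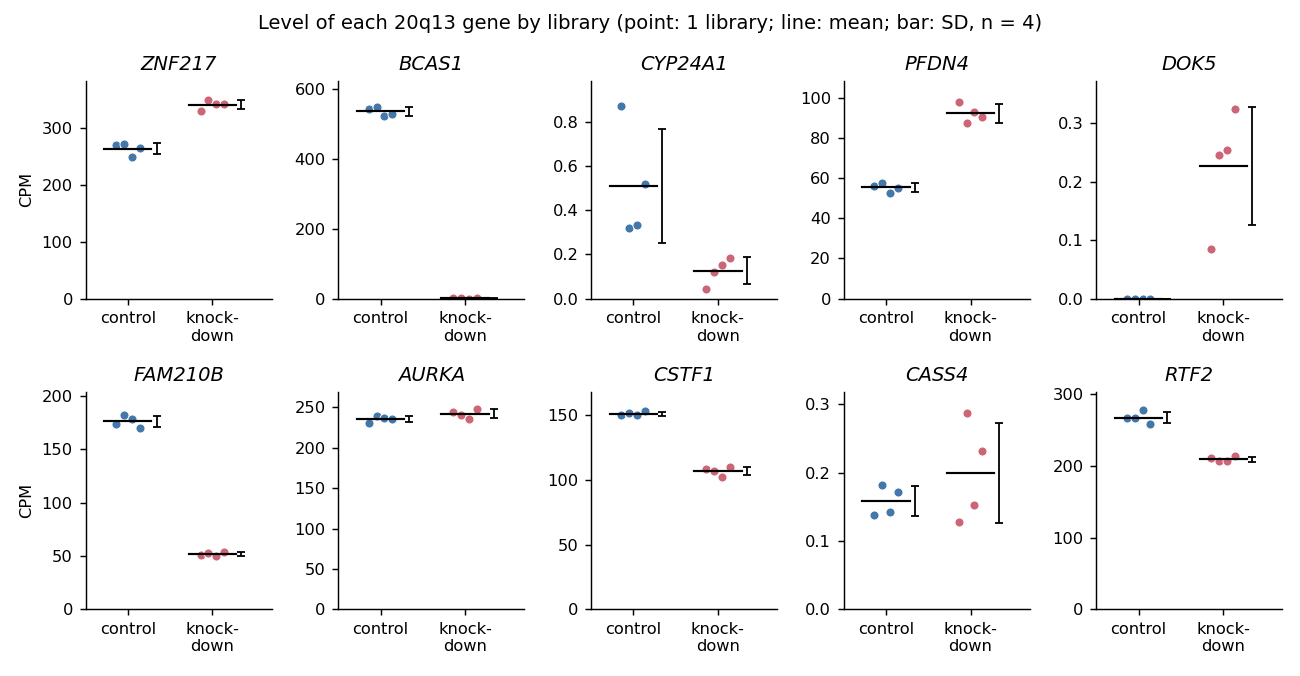
Levels of the 10 genes of 20q13 in CPM (vertical axes, from 0, each with its own range) in control and FOXA1 knockdown libraries of SKBR3; each point is 1 library, lines are means and bars are SD over 4 libraries. BCAS1 goes from 536.1 CPM to 0.806 CPM, FAM210B from 176.4 to 52.0 CPM, and the AURKA values of the groups overlap.

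ZNF217, the zinc finger repressor that gives the region its name here, was moderately higher without FOXA1. Its level was 271.2, 271.6, 249.5 and 265.0 CPM in control libraries 1 to 4 and 330.4, 349.7, 342.2 and 343.1 CPM in knockdown libraries 1 to 4. Every knockdown library lay above every control library, and control library 3 was the lowest of all. The mean went from 264.3 CPM ± 10.3 to 341.4 CPM ± 8.04 (SD over n = 4 each), a rise of 1.29-fold. Its log2 fold change of 0.37 (SE 0.0333) had an edgeR adjusted p of 4.81e-10, and an exact two-sided permutation test over libraries gave p = 0.0286, the lowest value possible with 4 and 4 libraries. Leaving out any 1 library, control library 3 included, kept the log2 fold change between 0.338 and 0.389. Among 16430 tested genes its CPM ranked 649 in control and 423 in knockdown. An antisense gene (ENSG00000197670) shares 137 bases of exon with it, at 34.38 counts per library against the 5255 to 8537 counts of ZNF217. That antisense gene also rose, from 1.21 CPM ± 0.12 to 1.87 CPM ± 0.212 (SD over n = 4 each; log2 fold change 0.63, SE 0.108, edgeR adjusted p 0.00323). Whether the counting used strand is not given in the sources used here, so their shared reads cannot be told apart.

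The chromosome 20 genes whose profile over the 8 libraries lay nearest to that of ZNF217 were looked up. Likeness was the Euclidean distance between log2 CPM profiles centred on their means, over 346 tested protein-coding genes outside the 10. ENSG00000284776 was nearest at a distance of 0.0823 (log2 fold change 0.37), followed by CPNE1, a calcium-dependent phospholipid-binding protein, at 0.160 (0.38) and NANP, a sialic acid synthesis phosphatase, at 0.167 (0.40). Their distances from ZNF217 along the chromosome were -35.0, -17.9 and -28.0 Mb, where minus is towards the short arm, so none is a neighbour. The distances are descriptions and carry no test. The profile includes the difference between the groups, so a log2 fold change like that of ZNF217 follows from the choice.

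BCAS1, the next tested gene, lost nearly all of its transcript. Control libraries 1 to 4 held 543.5, 549.5, 522.5 and 529.0 CPM, and knockdown libraries 1 to 4 held 0.978, 0.819, 0.407 and 1.02 CPM. In counts, between 11004 and 12276 in control stood against 23, 20, 8 and 22 in knockdown, and the groups were far apart. The mean fell from 536.1 CPM ± 12.5 to 0.806 CPM ± 0.279 (SD over n = 4 each), which is 666-fold lower and leaves 0.1503% of it. On the log2 scale the change was -9.35 (SE 0.294, edgeR adjusted p 1.82e-31), with an exact two-sided permutation p of 0.0286. By fitted log2 fold change this was number 23 among the falls of all 16430 tested genes, and its rank by CPM went from 228 to 14412. The antisense gene ENSG00000236352, which lies within BCAS1 and shares 550 bases of exon with it, had 5, 3, 1 and 2 control counts and none in any knockdown library. The remaining fraction of BCAS1 was smaller than the 2.06% of FOXA1 itself that remained.

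PFDN4 rose. Prefoldin captures unfolded actin and tubulin chains and hands them to the cytosolic chaperonin. Its PFDN4 subunit was at 55.8, 57.7, 52.7 and 55.0 CPM in control libraries 1 to 4 and at 97.9, 87.2, 93.0 and 90.2 CPM in knockdown libraries 1 to 4. All knockdown values were above all control values by a wide margin compared with their spread. The mean went from 55.3 CPM ± 2.07 to 92.1 CPM ± 4.57 (SD over n = 4 each), 1.66-fold higher. Its log2 fold change of 0.735 (SE 0.0447) had an edgeR adjusted p of 7.77e-14, and the exact two-sided permutation p was 0.0286.

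CYP24A1 and DOK5, which flank PFDN4, were close to undetected, and neither passed the filter on low counts. CYP24A1, the vitamin D 24-hydroxylase and a classical target of the vitamin D receptor, had 19, 7, 7 and 12 counts in control libraries 1 to 4 and 1, 3, 3 and 4 in knockdown libraries 1 to 4. Every knockdown count was below every control count. The 45 control and 11 knockdown counts give a knockdown-to-control ratio of 0.242 with an exact 95% interval of 0.113 to 0.474, which covers counting error only. Without the filter, edgeR gave an adjusted p of 0.000105 for it. DOK5, an adaptor downstream of receptor tyrosine kinases, had 0 counts in every control library and 2, 6, 5 and 7 in the knockdown libraries. A count of 0 allows up to 3 counts, or 0.123 to 0.153 CPM depending on the library, so these levels lie at the edge of detection and no fold is given (edgeR adjusted p 1.61e-05 without the filter).

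FAM210B, first of the second block, had the largest fall after BCAS1 among the 7 tested genes of this stretch. By fitted log2 fold change it was number 1252 among the falls of all 16430 tested genes. Its level was 174.0, 182.4, 178.7 and 170.4 CPM in control libraries 1 to 4 and 51.2, 52.5, 50.4 and 53.9 CPM in knockdown libraries 1 to 4. The lowest control library stood far above the highest knockdown library. The mean fell from 176.4 CPM ± 5.24 to 52.0 CPM ± 1.52 (SD over n = 4 each), or 3.39-fold. The log2 fold change was -1.76 (SE 0.03, edgeR adjusted p 4.84e-23), and the exact two-sided permutation p was 0.0286.

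AURKA ends 0.72 kb from the end of FAM210B, on the opposite strand, and did not pass the test. Aurora A drives centrosome maturation and spindle assembly, and its transcript usually tracks dividing cells. Control libraries 1 to 4 held 230.4, 239.8, 237.0 and 235.1 CPM, and knockdown libraries 1 to 4 held 244.3, 240.3, 235.9 and 248.4 CPM. Knockdown library 3 lay inside the control range and the other 3 just above it. The means were 235.6 CPM ± 3.97 and 242.2 CPM ± 5.33 (SD over n = 4 each), and the log2 fold change of 0.04 (SE 0.02) had an edgeR adjusted p of 0.259 and an exact two-sided permutation p of 0.114. This value depended on the scaling: with upper quartiles it was 0.10 (adjusted p of 0.0088), with library size only 0.124 (adjusted p of 0.000877), and with the shift of its 50 nearest tested genes taken out 0.254 (adjusted p of 1.17e-07), all by edgeR. Over 18 alternatives the adjusted p ranged from 1.17e-07 to 0.534.

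CSTF1 and RTF2, on the far side of AURKA, both fell by less than 2-fold. CSTF1, the smallest subunit of the cleavage stimulation factor and a partner of BARD1, was at 149.5, 151.1, 150.1 and 152.8 CPM in control libraries 1 to 4 and at 108.1, 106.9, 102.2 and 109.6 CPM in knockdown libraries 1 to 4. The groups were well separated. Its mean fell from 150.9 CPM ± 1.44 to 106.7 CPM ± 3.19 (SD over n = 4 each), to 70.7% of control (log2 fold change -0.50, SE 0.0228, edgeR adjusted p 2.07e-12).

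RTF2, a factor removed from stalled replication forks by the proteasome, was at 267.1, 266.5, 277.5 and 258.7 CPM in control libraries 1 to 4. In knockdown libraries 1 to 4 it was at 211.0, 206.4, 206.6 and 213.4 CPM, each lower than any control. The mean fell from 267.4 CPM ± 7.71 to 209.4 CPM ± 3.45 (SD over n = 4 each), to 78.3% of control (log2 fold change -0.35, SE 0.0239, edgeR adjusted p 4.75e-10). For both genes the exact two-sided permutation p was 0.0286. RTF2 lies over GCNT7 and FAM209A, of which FAM209A shares 226 bases of exon with it at 2.12 counts per library.

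CASS4, the haematopoietic member of the CAS scaffold family, lies between CSTF1 and RTF2 and was near the limit of detection. It had 3, 4, 3 and 4 counts in control libraries 1 to 4 and 3, 7, 3 and 5 in knockdown libraries 1 to 4. The groups overlapped, and the ratio of 1.27 had an exact 95% interval from 0.597 to 2.76, which covers counting error only. It stayed low between neighbours of high level on both sides. The leukocyte gene PTPRC had at most 3 counts in any library.

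Divided by exon length, the levels spread widely in control. AURKA was highest at 80.5 CPM per kb ± 1.36 (SD, n = 4), and RTF2 (65.8 ± 1.896) and BCAS1 (65.5 ± 1.53) overlapped. FAM210B (49.3 ± 1.46), ZNF217 (42.8 ± 1.67), CSTF1 (31.4 ± 0.300) and PFDN4 (28.0 ± 1.05 CPM per kb) followed without overlap between neighbours in the order. CYP24A1 (0.128 CPM per kb), CASS4 (0.0313) and DOK5 (0) were far below. In knockdown AURKA was again highest at 82.7 CPM per kb ± 1.82, ZNF217 came next at 55.2 ± 1.30, ahead of RTF2 at 51.5 ± 0.849, PFDN4 at 46.6 ± 2.32, CSTF1 at 22.2 ± 0.664 and FAM210B at 14.5 ± 0.426. BCAS1 dropped among the barely detected genes, at 0.0984 CPM per kb, where it overlapped DOK5 at 0.0873, and DOK5 overlapped CASS4 at 0.0394 and CASS4 overlapped CYP24A1 at 0.0317.

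The neighbours were next compared within each library, since a ratio of counts from 1 library does not depend on how libraries were scaled. All 6 ratios of adjacent tested genes differed between the groups without overlap (exact two-sided permutation p of 0.0286 for each, and 0.0286 after Benjamini-Hochberg adjustment over the 6). Over all 13253 pairs of adjacent tested protein-coding genes the groups did not overlap for 75.6%, with a median absolute shift of 0.80 on the log2 scale (quartiles 0.328 and 1.99), so a shift as such is near the background. The shifts ran in both directions along the chromosome. The ratio of BCAS1 to ZNF217 was 1.003, 1.017, 1.066 and 0.997 on the log2 scale in control libraries 1 to 4 and -8.370, -8.702, -9.627 and -8.364 in knockdown libraries 1 to 4. It changed by -9.79 (SE 0.298), an 883-fold shift between genes 326.87 kb apart. The ratio of PFDN4 to BCAS1 changed the other way, from a mean of -3.28 ± 0.025 to 6.88 ± 0.592 (SD over n = 4 each), by 10.15 (SE 0.296), and BCAS1 is thus low between 2 tested neighbours that rose.

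In the second block the shifts were smaller, and the groups again did not overlap. AURKA to FAM210B, genes 0.72 kb apart, went from 0.405, 0.395, 0.407 and 0.464 on the log2 scale in control libraries 1 to 4 to 2.254, 2.195, 2.226 and 2.204 in knockdown libraries 1 to 4. That is a 3.49-fold shift (difference 1.80, SE 0.0203). CSTF1 to AURKA, the pair whose GENCODE spans border the 33 bases printed above, went from -0.624, -0.666, -0.659 and -0.621 in control to -1.176, -1.168, -1.207 and -1.181 in knockdown. No library of one group came near the other, and CSTF1 lost 1.45-fold relative to AURKA (difference -0.54, SE 0.0143). RTF2 to CSTF1 moved least, from 0.825 ± 0.0524 to 0.972 ± 0.029 (SD over n = 4 each), or 1.11-fold. FAM210B to PFDN4, across the wide gap, moved by -2.50 (SE 0.059), a ratio of 3.19 in control against 0.565 in knockdown.

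**Figure D2:**
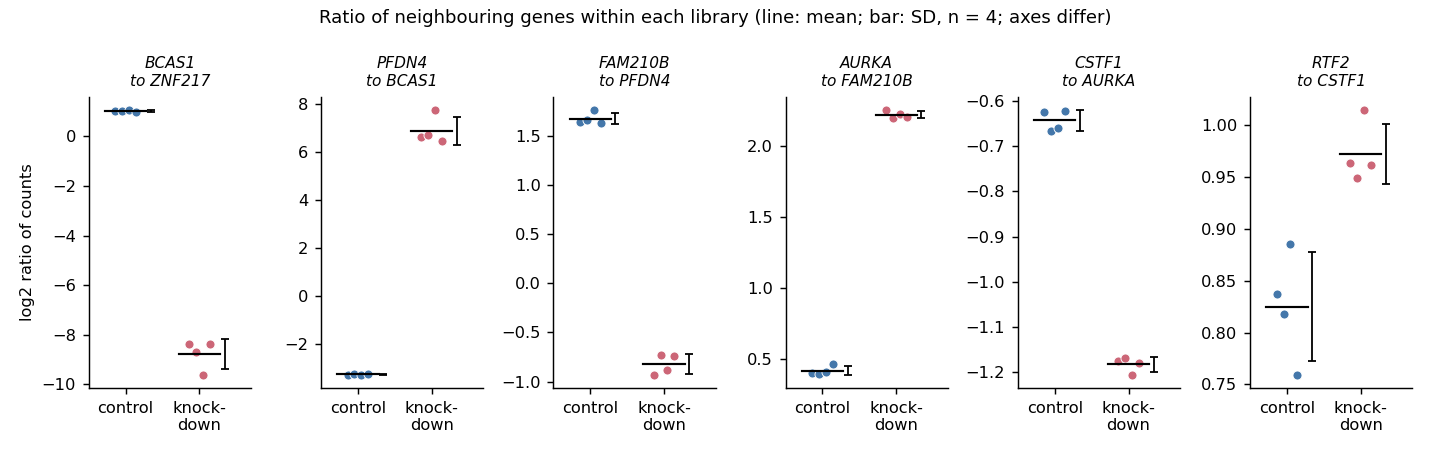
log2 ratio of the counts of adjacent tested genes within each library (vertical axes, each with its own range), in control and knockdown; each point is 1 library, lines are means and bars are SD over 4 libraries. The groups are apart in all 6 panels, by 10.15 for PFDN4 to BCAS1 and by 0.147 for RTF2 to CSTF1.

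No other protein-coding gene between ZNF217 and RTF2 was expressed enough to be tested. Of 18 counted genes in the 2.95 Mb, 13 are protein-coding and 9 were tested, among them the 7 described. The other 2 were the antisense gene of ZNF217 and LINC01441, a long non-coding RNA in the gap, with 26, 18, 20 and 22 counts in control and 19, 23, 12 and 22 in knockdown (log2 fold change -0.20, SE 0.191, edgeR adjusted p 0.453). CBLN4, a secreted synaptic protein also in the gap, had 0 counts in control and at most 2 in a knockdown library.

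The surroundings on chromosome 20 leaned lower. Within 5 Mb of the 10 genes, 49 other protein-coding genes were tested, of which 12 were higher and 27 lower, with a median log2 fold change of -0.234 (quartiles -0.744 and 0.105). The size of this median depended on the scaling, at -0.175 with upper quartiles and -0.15 with library size only. The median of all genes moved up by 0.059 and 0.084 under the same scalings, so this dependence was shared by all genes. On the rest of chromosome 20 the median was -0.093 over 297 genes (109 higher, 136 lower), and over all 13278 tested protein-coding genes it was 0.024 (5606 higher, 5310 lower). The 28 genes on the ZNF217 side had a median of -0.279 and the 21 on the RTF2 side one of -0.229, so the lean was present on both sides. ZNF217 and PFDN4 therefore rose among neighbours that were mostly lower. Relative to the median of their 50 nearest tested genes, the log2 fold changes became 0.607 for ZNF217, 1.117 for PFDN4, 0.254 for AURKA, -0.313 for CSTF1 and -0.166 for RTF2, a difference of over 1.5 times for each, with no change of direction. FAM210B and BCAS1 moved less, to -1.575 and -9.051. Whether a change in DNA copy number moves with this lean was not tested.

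**Figure D3:**
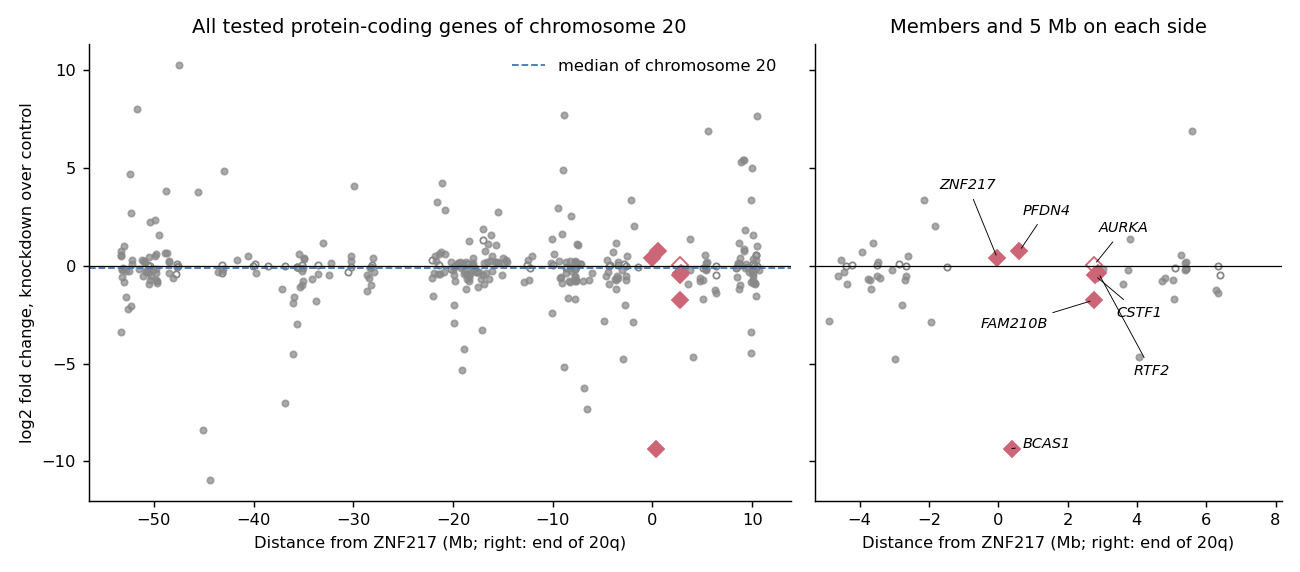
log2 fold change (knockdown over control) of the tested protein-coding genes of chromosome 20 by distance from ZNF217 in Mb, for the whole chromosome (left) and within 5 Mb of the members (right); grey points are other genes, red diamonds the members, open symbols genes not called, and the dashed line the chromosome median of -0.102. BCAS1 stands at -9.35 between ZNF217 and PFDN4, which are above 0.

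A list of 61 other genes of 20q13 is not a second observation, since most of its tested genes are genes of that window. Of its 47 tested genes 10 rose and 28 fell, with a median log2 fold change of -0.324, against 39.4% higher, 37.7% lower and a median of 0.019 over all tested genes. Among the genes of this list that averaged 50 or more counts, the strongest falls were in EYA2, which lies beyond the window, and PMEPA1. The list is not complete. Of the tested genes of the 5 Mb window it leaves out RIPOR3 (log2 fold change -4.75), STX16-NPEPL1 (-1.71), PEDS1-UBE2V1 (0.014), PEDS1 (0.205) and KCNG1 (0.477). Beyond the window, SLC2A10 had a log2 fold change of -6.27 and ADA one of 4.87, below those of RIMS4 (7.70) and SOX18 (7.65). All of these genes were named after their values were seen. EYA2, a transcriptional coactivator and phosphatase, went from 13.5 CPM ± 0.861 (SD, n = 4) to between 1 and 3 counts per library, a control-to-knockdown ratio of 172 (exact 95% interval 83.4 to 430.0, counting error only). PMEPA1, a membrane protein that dampens TGF-beta signalling, fell from 423.3 CPM ± 7.69 to 16.4 CPM ± 0.644 (log2 fold change -4.68, SE 0.0308). Against these, the T cell transcription factor gene NFATC2 rose from 5.05 CPM ± 0.286 to 51.8 CPM ± 3.62 (log2 fold change 3.36, SE 0.0645) and the RNA-binding protein gene RBM38 from 80.2 CPM ± 3.57 to 204.6 CPM ± 5.65 (log2 fold change 1.35, SE 0.0378; SD, n = 4 each). The adjusted p of these 4 genes was at most 1.15e-20 by edgeR. PMEPA1 shares 343 bases of exon with NKILA, which averaged 77.1 counts per library, against 323 to 423 counts of PMEPA1 in knockdown. Reads shared by these 2 genes cannot be told apart. RBM38 shares 338 bases with RBM38-AS1, which averaged 12.9 counts.

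The partners of these proteins were followed through lists named after textbook functions, and each count below stands against 39.4% of all tested genes higher, 37.7% lower and a median of 0.019. The corepressor partners of ZNF217 comprised 15 tested genes, of which 10 rose and 4 fell (median log2 fold change 0.32). HDAC1, a histone deacetylase, rose from 105.4 CPM ± 4.35 to 161.7 CPM ± 3.87 (log2 fold change 0.62, SE 0.034) and the histone demethylase gene KDM5B from 83.5 CPM ± 2.48 to 128.5 CPM ± 3.31 (0.62, SE 0.0283). KDM1A, the demethylase at the centre of the CoREST complex, named after its value was seen, had a log2 fold change of 0.53 (edgeR adjusted p 9.43e-13). PHF21A, which reads unmethylated histone tails in the same complex, fell from 22.8 CPM ± 0.808 to 9.92 CPM ± 0.431 (log2 fold change -1.20, SE 0.0403), and HMG20B from 167.8 CPM ± 6.78 to 113.7 CPM ± 3.60 (-0.56, SE 0.0367; SD, n = 4 each). The members of the complex thus did not move as 1 group. HMG20B shares 369 bases of exon with the well-expressed MFSD12 on the opposite strand.

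Most partners and substrates of Aurora kinases rose, although AURKA did not pass the test. Of 20 tested genes 14 rose and 4 fell (median 0.441). HMMR, a spindle protein, rose from 28.6 CPM ± 4.50 to 87.0 CPM ± 7.11 (log2 fold change 1.60, SE 0.134) and AURKB, the kinase of the chromosomal passenger complex, from 14.5 CPM ± 0.780 to 30.4 CPM ± 1.57 (1.07, SE 0.0536). TPX2, the activator of Aurora A and named after its value was seen, rose from 142.0 CPM ± 2.20 to 203.4 CPM ± 6.51 (log2 fold change 0.52, SE 0.0257). NUMA1, a spindle pole protein, fell from 364.6 CPM ± 11.3 to 158.6 CPM ± 4.01 (-1.20, SE 0.0289), and AJUBA, another activator of Aurora A, from 92.7 CPM ± 1.99 to 57.9 CPM ± 4.63 (-0.68, SE 0.0598; SD, n = 4 each). The adjusted p of these 5 genes was at most 4.5e-06 by edgeR. NUMA1 overlaps exons of IL18BP, LRTOMT and of a further gene on the opposite strand.

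CSTF1 fell while most of the genes that cut and polyadenylate messenger RNAs did not. Of 18 tested genes 11 rose and 3 fell (median 0.18). Its partners in the cleavage stimulation factor, CSTF2 and CSTF3, named after their values were seen, had log2 fold changes of 0.25 and 0.16 (adjusted p of 9.82e-05 and 0.00551 by edgeR), so that the 3 subunits moved in different directions. NUDT21, a subunit of cleavage factor I, rose from 130.4 CPM ± 4.56 to 215.2 CPM ± 1.69 (log2 fold change 0.72, SE 0.0259) and CSTF2T, the paralogue of CSTF2, from 33.4 CPM ± 1.37 to 54.2 CPM ± 0.659 (0.70, SE 0.0312; SD, n = 4 each). PCF11 and FIP1L1 fell by 0.30 (SE 0.0685) and by 0.14 (SE 0.0272) on the log2 scale. FIP1L1 shares 1560 bases of exon with LNX1 on the opposite strand. LNX1 averaged 211.9 counts per library, against 1178 to 1521 counts of FIP1L1, and their shared reads cannot be told apart.

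PFDN4 rose together with most of its chaperone. The prefoldin and chaperonin list had 16 tested genes, 14 of them higher and 1 lower (median 0.291). The chaperonin subunit gene CCT4 rose from 275.6 CPM ± 7.91 to 430.2 CPM ± 11.3 (log2 fold change 0.64, SE 0.0283) and UXT, a prefoldin-like protein, from 34.7 CPM ± 0.859 to 53.8 CPM ± 2.46 (0.63, SE 0.038). CCT6A was the gene that fell, from 674.1 CPM ± 15.2 to 567.5 CPM ± 9.65 (-0.25, SE 0.0205; SD, n = 4 each). At 0.735 the log2 fold change of PFDN4 was above that of the other canonical prefoldin genes, named outside the rule for list genes after their values were seen: PFDN1 (0.29), PFDN2 (0.13), PFDN5 (0.50), PFDN6 (0.55) and VBP1 (0.29), all of which rose; differences between the genes were not tested.

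Around CYP24A1, the vitamin D genes moved apart. Of 13 listed genes 8 were tested, 3 higher and 5 lower (median -0.439). VDR, the vitamin D receptor, fell from 135.6 CPM ± 5.57 to 32.3 CPM ± 1.41 (log2 fold change -2.07, SE 0.0432) and the calcium channel gene TRPV6, known as a receptor target, from 58.0 CPM ± 2.48 to 8.87 CPM ± 0.414 (-2.71, SE 0.0455). LRP2 (megalin), which takes up vitamin D bound to its carrier, rose from 3 to 5 counts per library to 215.6 CPM ± 9.04 (log2 fold change 10.08, SE 0.168), and RXRA, the partner of the receptor, from 118.0 CPM ± 7.26 to 128.7 CPM ± 4.12 (0.13, SE 0.0492, edgeR adjusted p 0.00883; SD, n = 4 each). The few counts of CYP24A1, which failed the filter, were also lower in knockdown. Whether these changes are linked was not tested.

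The adaptor genes around DOK5 and CASS4 were mostly higher. Of 11 DOK adaptors and partners 7 were tested, 6 higher and 0 lower (median 1.629); DOK3 rose from 0.743 CPM ± 0.196 to 3.83 CPM ± 0.361 (log2 fold change 2.35, SE 0.198) and DOK4 from 10.5 CPM ± 0.303 to 32.5 CPM ± 1.10 (1.63, SE 0.0321). DOK4 shares 89 bases of exon with POLR2C, a gene of 1760.4 counts per library. Of 12 tested CAS scaffold partners 7 rose and 4 fell (median 0.591). The scaffold gene EFS rose from 4.38 CPM ± 0.516 to 16.1 CPM ± 0.826 (log2 fold change 1.87, SE 0.0941) and the kinase gene PTK2B from 18.3 CPM ± 0.806 to 57.7 CPM ± 1.32 (1.66, SE 0.0361). BCAR1, the founding scaffold of the family, fell from 33.7 CPM ± 1.98 to 22.4 CPM ± 1.05 (-0.59, SE 0.0549) and the adaptor gene CRK from 82.9 CPM ± 2.98 to 66.8 CPM ± 0.188 (-0.31, SE 0.0263; SD, n = 4 each).

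**Figure D4:**
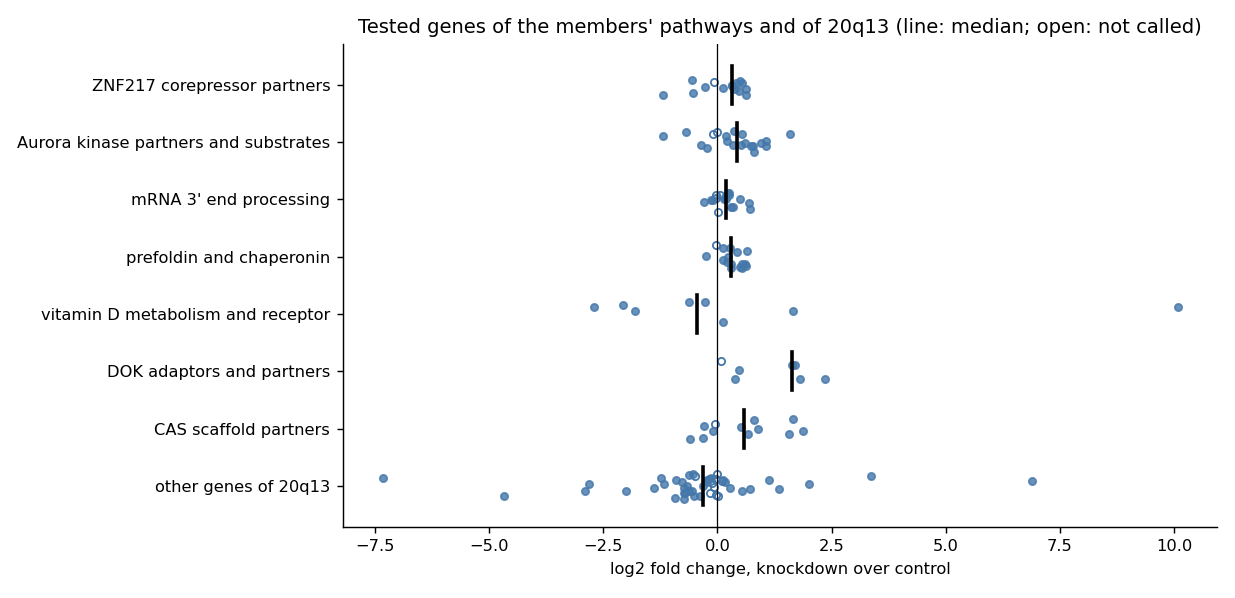
log2 fold change (knockdown over control, horizontal axis) of the tested genes in 7 lists of partners of the members and in the list of other 20q13 genes; each point is 1 gene, open points were not called, and vertical lines are list medians. The median is -0.324 for the other 20q13 genes and 0.441 for the Aurora kinase partners.

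Markers of other cell types stood beside these changes as follows. Basal markers summed to 2.24 to 2.99 CPM in control and 8.80 to 10.2 CPM in knockdown, and their members went different ways. TP63 rose from 2 to 4 counts in control to 162 to 191 in knockdown and ACTA2 fell from 24 to 36 counts to at most 2, while KRT5 had a log2 fold change of 0.19 (edgeR adjusted p 0.451) and KRT14 at most 1 and at most 7 counts. The 4 fibroblast markers summed to 5.22 to 6.98 CPM in control and 6.21 to 7.66 CPM in knockdown, which hid a rise of PDGFRB (log2 fold change 2.78, edgeR adjusted p 2.99e-11) and a fall of COL1A1 (-0.31, edgeR adjusted p 0.0169). COL1A2 had at most 3 counts in any library and DCN at most 1. The leukocyte marker CD68, whose exons overlap other genes, fell from 93 to 131 counts in control to 3 to 26 in knockdown (log2 fold change -3.05, edgeR adjusted p 3.62e-06). The 3 endothelial markers summed to 20.7 to 22.1 CPM and 19.7 to 22.4 CPM, although VWF fell (log2 fold change -2.62, edgeR adjusted p 3.31e-13) and CDH5 rose (0.32, edgeR adjusted p 6.28e-05). PECAM1 had at most 6 counts. The part of these shifts in the results above was not tested.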

How the data were processed

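RNA from 4 control and 4 FOXA1 knockdown libraries of SKBR3 was sequenced as paired-end reads, per the labels' protocols. The authors deposited whole-number counts per gene under versioned Ensembl identifiers. FastQC, Salmon 1.9, DESeq2 (written as 3.16) and the build hg38 are named, per the submitters' processing notes, with no role given; if Salmon made the counts, they are rounded estimates and reads shared by overlapping genes were divided by its model. The use of strand is not given in the sources used here. GENCODE 29 positions were found for 29358 identifiers (96.5%).

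Members and gene lists were chosen with earlier results of these data known, as was the offset by neighbouring genes, and the lists support nothing by their direction. Named list genes are the 2 largest rises and 2 largest falls past the threshold with a mean of at least 50 counts; genes outside that rule are marked in the text, except the cell type markers, whose lists are given by their members. One marker is not reported here. For ZNF217, the 3 nearest profiles on chromosome 20 are named.

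Genes were kept by filterByExpr (minimum count 10, total 15), which left 16430 and removed 14004. Libraries were scaled by TMM (factors 0.965 to 1.04) and tested with edgeR 4.0.16 in R 4.3.3 (quasi-likelihood test, robust, Benjamini-Hochberg adjustment, threshold 0.05). The biological coefficient of variation was 4.56%. Standard errors come from log2 CPM with 0.5 added to counts. Exact two-sided permutation tests used all 70 divisions of the libraries. Intervals and the floor of 3 counts cover counting error only. Alternatives were scaling by library size, RLE or upper quartiles, 2 other filters, DESeq2 1.42.0, limma 3.58.1 with voom, no robust estimation, a replicate block, the neighbour offset, and leaving out each library.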

Additional observations from a re-analysis of the deposited data

How the results depend on the processing

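Under 18 alternatives the number of genes called ran from 10279 to 15028, within 1.5 times of the 12675 reported. ZNF217, BCAS1, PFDN4, FAM210B, CSTF1 and RTF2 kept their direction and stayed past the threshold in all 18. AURKA kept its direction and passed the threshold in 3 of them, as given with its values. Other scalings moved the median of all genes by at most 0.084 on the log2 scale, and the median of the 49 genes around the members from -0.234 to -0.175 when scaled by upper quartiles and -0.15 when scaled by library size.

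No pairing of the libraries by replicate number was visible: same-numbered libraries had correlations of 0.02, 0.0563, -0.0307 and -0.00064 between their deviations, and 1 of the 4 numbers correlated best with its own. These values do not show whether same-numbered libraries were made together. With the number as a replicate block, 12453 genes were called and no member changed its call.

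Leaving out 1 library kept every ratio of neighbours in its direction, but 3 against 4 cannot give an exact permutation p below 0.0571. On the log2 scale the differences then ran from -9.92 to -9.5 for BCAS1 to ZNF217, 9.86 to 10.297 for PFDN4 to BCAS1, -2.526 to -2.458 for FAM210B to PFDN4, 1.79 to 1.817 for AURKA to FAM210B, -0.548 to -0.532 for CSTF1 to AURKA, and 0.125 to 0.168 for RTF2 to CSTF1. Depth limits CYP24A1, DOK5 and CASS4, all at 19 counts or fewer per library.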
